A study of Mus musculus with 6 samples.

Results

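Complex I of the respiratory chain is described here through its nuclear genes, all rows of a deposited expression table whose gene symbol begins with Nduf and whose mean over the 6 libraries was at least 1 FPKM. FPKM is the number of fragments of a gene scaled by transcript length and by the size of the library, so a value is a share of its library adjusted for transcript length. All 45 such rows of the 18518 gene symbols in the table met the minimum, and 44 of them are reported. The lowest mean was that of Ndufs5 at 6.37 FPKM, the next that of Ndufaf5 at 10.4 FPKM, and none lay below the minimum. The table came from RNA sequencing of E14Tg2A cells, an established mouse embryonic stem cell line. It held 3 wild-type (WT) libraries and 3 libraries of cells in which Bach1 had been disrupted with CRISPR/Cas9 (BACH1-KO), and both genotypes had spent 2 days in serum medium with 200 units/ml of leukemia inhibitory factor. The knockout cells came from sorted single-cell clones after a lentiviral guide plasmid, transiently transfected, and puromycin selection, and the labels do not say how many clones the 3 libraries stand for. The labels do not say that libraries came from separate cultures, so p-values cover only how far these libraries scatter, and that scatter may be technical.

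Complex I takes electrons from NADH and passes them over flavin and iron-sulfur clusters to ubiquinone while it pumps protons across the inner mitochondrial membrane. Its matrix arm holds the N module, which oxidizes NADH, and the Q module, where quinone is reduced, and its membrane arm holds the pumping subunits, several of them encoded by mitochondrial DNA. Around the conserved core sit accessory subunits, and a set of assembly factors builds the complex without staying in it. Mouse embryonic stem cells in the naive state are known to use both glycolysis and respiration. The mitochondrially encoded subunits, Ndufb1 and Ndufaf8 under that symbol were not analysed here.

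All 10 listed markers of embryonic stem cells were present in all libraries, with summed levels of 10525 to 11298 FPKM in WT libraries and 6784 to 7034 FPKM in knockout libraries, 8 of them lower and 2 higher by the test described next. Of 16 fibroblast feeder markers 10 were at or under 1 FPKM in all libraries, with sums in WT of 82.9 to 83.6 FPKM and in BACH1-KO of 78.2 to 81.7 FPKM. Of 12 primitive endoderm markers 6 were at or under 1 FPKM in all libraries, 4 of the 6 tested fell and none rose, and the sums were 33.9 to 37.0 FPKM for WT and 19.5 to 20.6 FPKM for BACH1-KO. Hepatocyte transcripts moved with the genotype, with 23 of 23 tested of 25 listed markers higher, and summed levels in WT of 11.4 to 18.5 FPKM and in BACH1-KO of 1132 to 1169 FPKM. Apoh and Cyp3a11 were listed at 0 in all WT libraries. The part of any of these marker lists in the results on complex I was not tested. The hepatocyte list made up at most 0.153% of the summed FPKM of a library. Bach1 itself stood at 7.97, 8.39 and 8.47 FPKM in WT and at 10.5, 10.4 and 10.4 FPKM in BACH1-KO, which does not check an edit of the coding sequence. In bulk libraries such as these, fewer cells of a type and less RNA per cell cannot be told apart.

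Most complex I genes differed between the genotypes by modest amounts, more often downward than upward, except under quantile normalization, where the order of the counts turned. Log2(FPKM + 1) was compared with limma across the 12187 genes whose mean reached 1 FPKM, and a gene is said to have risen or fallen where its Benjamini-Hochberg adjusted p was under 0.05. Of the 44 genes 22 fell, 10 rose and 12 did not pass. Over all tested genes 39.7% fell and 37.3% rose, 77% in all, so the count that passed, 32 of 44, was near the background, while the split leaned to lower values. The median log2 fold change, BACH1-KO minus WT, was -0.23 over the 44 genes and -0.01 over all tested genes. The changes were small: 8 of the 44 genes (18.2%) passed with a log2 fold change of at least 0.5 in size, against 37.6% of all tested genes, and of those that passed only Ndufa8 at least halved or doubled. Values of the 2 genotypes did not overlap for 31 of the 44 genes, 21 with BACH1-KO below and 10 above, where 79.3% of all tested genes did not overlap, 40.9% with BACH1-KO below and 38.4% above. The split held under median-of-ratios scaling, with 10 of 32 called genes higher (31.2%), and under centring per chromosome, with 10 of 34 (29.4%), but not under quantile normalization. There 17 genes rose and 15 fell, where 34.9% of all tested genes rose and 41% fell, so that 53.1% of the called genes were higher in place of 31.2%, and the median log2 fold change stayed negative at -0.12. Tested against a fold change of 1.2 instead of no change, 8 genes fell and 5 rose, where 22.3% and 22.4% of all tested genes did so. Against a fold change of 1.5 only Ndufa8 passed, where 19% of all tested genes did, counting both directions, and 8.16% of all tested genes fell.

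**Figure D1:**
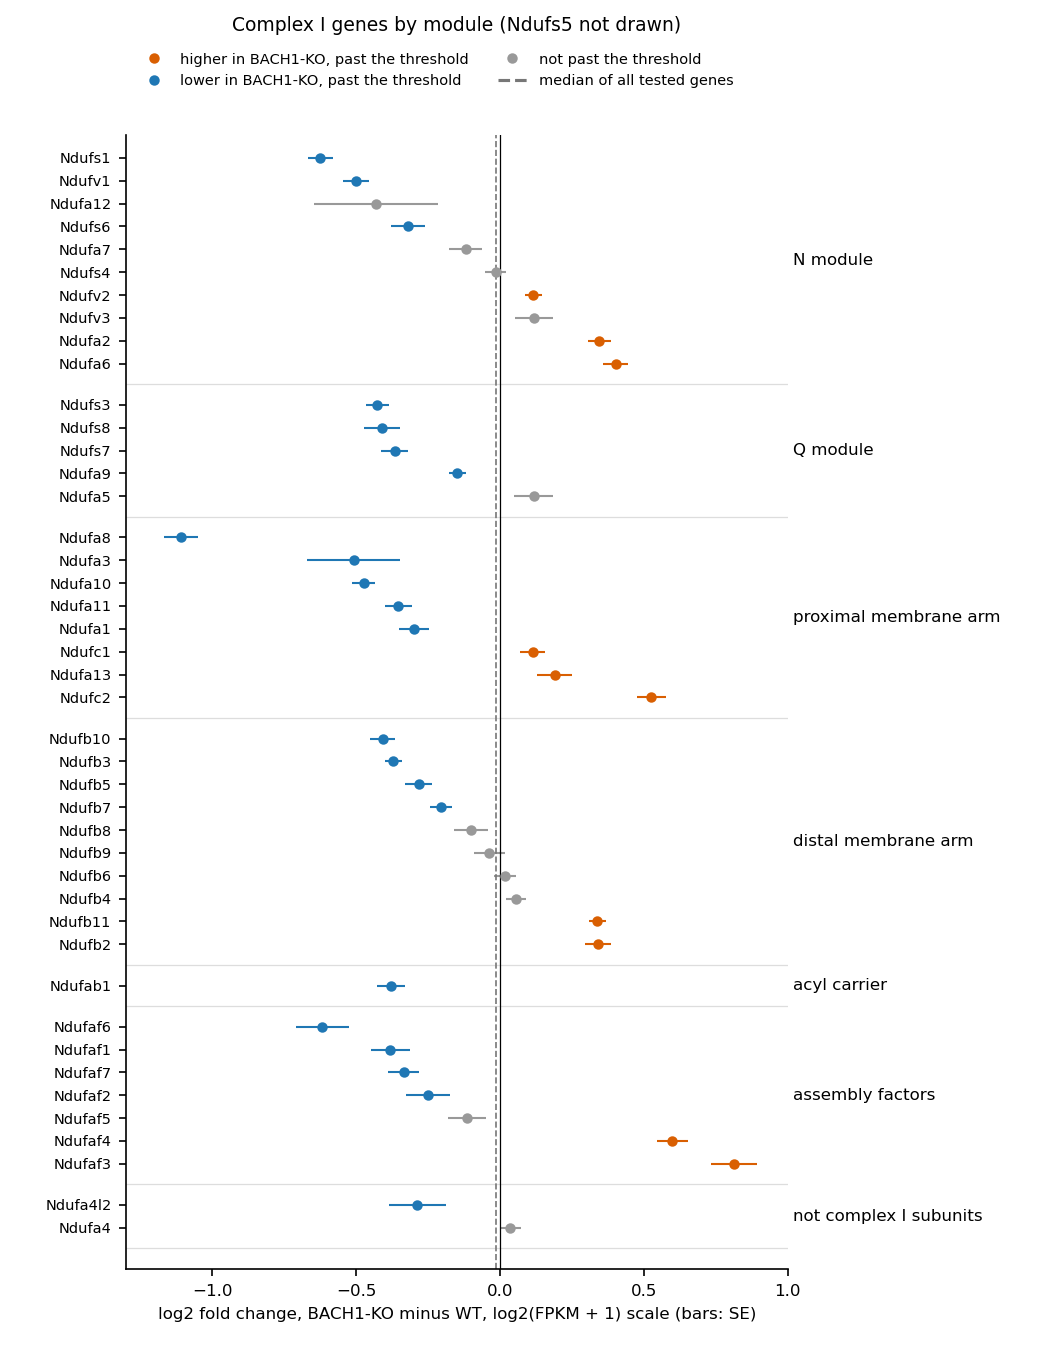
Log2 fold change (horizontal axis, knockout minus WT for log2(FPKM + 1), bars show the standard error from limma) of 43 complex I genes grouped by module, with colour for the call and a dashed line at the median of all tested genes. Ndufa8 lies farthest to the left at -1.11 and Ndufaf3 farthest to the right at 0.81, and the N module, both membrane arm regions and the assembly factors hold genes past the threshold on both sides of 0.

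Levels of these genes spanned a wide range. The median of the means over the 6 libraries was 138 FPKM, 28 of the 44 genes were above 100 FPKM, and the highest was Ndufa7 at 924 FPKM. The coefficient of variation between libraries of a genotype had a median of 5.27% in WT and 3.96% in BACH1-KO. Across the 43 genes other than Ndufs5, the log2 fold change showed little relation to the length of the longest annotated transcript (Pearson's r 0.05, Spearman's rho 0.02) and weakly related to the mean level (r 0.05, rho 0.22). These are descriptions across genes measured in the same libraries. In the GENCODE M21 annotation of the mm10 genome, exons of 16 of the 44 genes overlap exons of a gene on the opposite strand and 3 overlap a gene on the same strand. Whether strand was used in the counting is not given in the sources used here, so values of these genes may hold reads of the neighbour.

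Promoter windows from RefSeq (build GRCm38.p6, 250 bases before to 50 bases after the transcription start) were found for 39 of the 44 genes. They were searched on both strands for letters of 5 motifs that bear on nuclear genes of respiration or on BACH1. A gene was counted if any of its windows held the letters, while the share over all windows counts each window singly. The 2 percentages thus differ in unit, which can raise the share of genes where a gene has more than 1 window. The palindrome bound by NRF1, a regulator of respiratory genes, shown in capitals in the Ndufaf4 window, was in windows of 3 of 39 genes (7.69%) and in 0.971% of all windows. AAGATGGCG, a YY1 motif, was in 5 of 39 (12.8%) against 1.40% of all windows. CCGGAAG, the core bound by ETS factors such as GABPA, was in 5 of 39 (12.8%) against 8.86% of all windows. TGACGTCA, the cyclic AMP response element, was in 3 of 39 (7.69%) against 1.79%. TGANTCAGC, the element that BACH1 binds together with small MAF proteins, was in windows of 0 of 39 genes and in 1.19% of all windows. A match is a description of letters and not a binding site, and a missing match says only that these letters are not in the window. Of 19 genes with a window that fell, 4 held the ETS letters, 3 the YY1, 2 the cyclic AMP and 1 the NRF1 letters, and of 9 that rose 0, 1, 1 and 1 did, differences that were not tested. Windows are shown for the gene that fell most, the gene that rose most, and the 2 genes past the threshold that hold the NRF1 letters, 1 of which fell (Ndufa11) and 1 of which rose (Ndufaf4). Capitals mark the NRF1 letters, which begin 60 bases before the start site in Ndufa11 and 113 before it in Ndufaf4, and the cyclic AMP response element of Ndufa11, which begins 158 before it. Neither Ndufa8 nor Ndufaf3 holds any of the 5 motifs as searched.
Ndufa8, chr2:36049289-36049588, minus strand: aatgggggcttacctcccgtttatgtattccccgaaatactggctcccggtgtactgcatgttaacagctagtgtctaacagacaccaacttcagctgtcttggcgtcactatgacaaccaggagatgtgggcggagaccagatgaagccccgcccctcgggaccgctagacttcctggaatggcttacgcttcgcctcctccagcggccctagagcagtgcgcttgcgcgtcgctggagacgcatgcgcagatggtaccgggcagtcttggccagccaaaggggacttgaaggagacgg
Ndufaf3, chr9:108567387-108567686, minus strand: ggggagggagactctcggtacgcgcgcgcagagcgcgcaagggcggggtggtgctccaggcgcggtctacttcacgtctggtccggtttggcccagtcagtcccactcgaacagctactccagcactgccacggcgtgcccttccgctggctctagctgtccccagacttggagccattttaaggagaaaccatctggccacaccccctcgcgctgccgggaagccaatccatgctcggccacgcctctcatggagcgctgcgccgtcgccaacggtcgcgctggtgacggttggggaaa
Ndufa11, chr17:56717512-56717811, plus strand: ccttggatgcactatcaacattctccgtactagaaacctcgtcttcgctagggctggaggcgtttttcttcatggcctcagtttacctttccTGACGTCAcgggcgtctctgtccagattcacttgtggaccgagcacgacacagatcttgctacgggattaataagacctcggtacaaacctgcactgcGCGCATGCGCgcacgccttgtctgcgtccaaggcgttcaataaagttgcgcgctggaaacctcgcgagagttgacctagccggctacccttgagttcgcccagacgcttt
Ndufaf4, chr4:24897833-24898132, plus strand: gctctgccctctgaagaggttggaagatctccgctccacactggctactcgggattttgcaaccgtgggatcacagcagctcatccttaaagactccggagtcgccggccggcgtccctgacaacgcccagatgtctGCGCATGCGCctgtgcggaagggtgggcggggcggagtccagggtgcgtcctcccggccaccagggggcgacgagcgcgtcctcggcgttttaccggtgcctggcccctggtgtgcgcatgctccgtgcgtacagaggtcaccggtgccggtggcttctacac

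Of 6 core subunits encoded in the nucleus all passed the threshold, and 5 of them fell. Of all tested genes 77% passed and 39.7% fell. Ndufs1, the large iron-sulfur subunit of the N module (chromosome 1, 63143596 to 63176833, mm10), was at 85.1, 88.2 and 88.0 FPKM in WT and at 58.4, 52.9 and 57.3 FPKM in BACH1-KO. All 3 knockout libraries lay below all WT libraries, with a log2 fold change of -0.62 (SE 0.04, limma adjusted p = 3.69e-06). Its exons overlap those of Eef1b2 on the opposite strand. Ndufv1, which binds NADH and the flavin (chromosome 19, 4007384 to 4012806), was at 163, 175 and 175 FPKM in WT and at 117, 117 and 127 FPKM in BACH1-KO. The groups did not overlap, with a log2 fold change of -0.50 (SE 0.04, limma adjusted p = 1.73e-05). Ndufv2, the partner of Ndufv1 that holds an iron-sulfur cluster, went the other way, from 112, 116 and 110 FPKM in WT to 121, 122 and 123 FPKM in BACH1-KO. The rise was small, 0.12 on the log2 scale (SE 0.03, limma adjusted p = 0.00845), and its libraries did not overlap between genotypes.

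In the Q module 4 of 5 reported genes fell and none rose, where 39.7% of all tested genes fell and 37.3% rose. The median log2 fold change of the module was -0.37, and the core subunits Ndufs3, Ndufs8 and Ndufs7 fell by about the same size. Ndufs3, an early anchor of this module's assembly, was at 101, 95.8 and 103 FPKM in WT and 75.9, 71.2 and 75.1 FPKM in BACH1-KO (log2 fold change -0.43, SE 0.04, limma adjusted p = 2.28e-05). Ndufs8, which holds iron-sulfur clusters, was at 134, 152 and 162 FPKM in WT and 111, 115 and 109 FPKM in BACH1-KO (log2 fold change -0.41, SE 0.06, limma adjusted p = 4.70e-04). Ndufs7, which holds the last iron-sulfur cluster before quinone, was at 139, 143 and 158 FPKM in WT and 113, 114 and 113 FPKM in BACH1-KO (log2 fold change -0.37, SE 0.05, limma adjusted p = 1.57e-04). In each of these genes every knockout library was below every WT library. None of the 6 core genes lost its call in an alternative other than the tests against a fold change. The 2 accessory subunits of the module split, Ndufa9 lower with a log2 fold change of -0.15 (limma adjusted p = 0.00194) and Ndufa5 at 0.12 without passing (adjusted p = 0.142). Both lie on chromosome 6, whose 570 tested genes had a median log2 fold change of 0.32, 59.6% of them higher. Ndufa9 lost its call under quantile normalization, at 0.014 (adjusted p = 0.686), and was at -0.45 (adjusted p = 2.70e-06) when each library was centred per chromosome. Ndufa5 was at 0.27 under quantile normalization (adjusted p = 0.00563) and at -0.19 centred per chromosome (adjusted p = 0.0294).

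**Figure D2:**
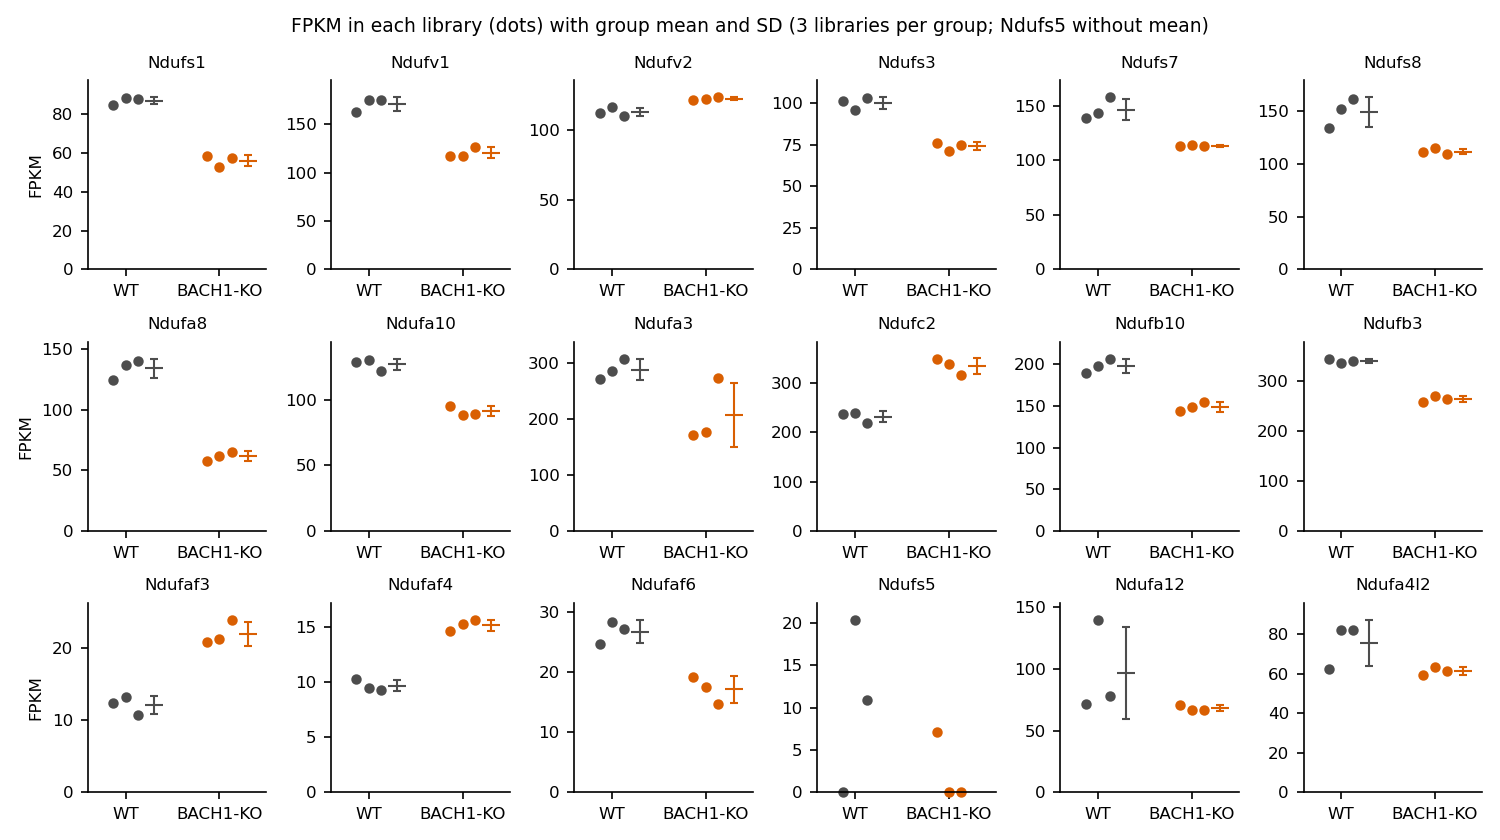
FPKM (vertical axis, linear from 0) in each library for 18 Nduf genes, with WT in grey and BACH1-KO in orange, dots for the 3 libraries of each genotype and a bar for the mean and SD (none for Ndufs5). The groups lie apart in all panels except Ndufa3, where 1 knockout library sits among the WT values, Ndufs5 and Ndufa4l2, where 1 WT library sits among the knockout values. In Ndufa12 the second WT library, at 139 FPKM, stands far above the other two.

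The remaining N module genes are accessory subunits and moved both ways. Ndufs6, a zinc-binding subunit, fell to 230 ± 15.2 FPKM from 287 ± 16.7 FPKM (log2 fold change -0.32), where the error, as in all means here, is the SD with n = 3. Ndufa6, a small LYR-motif subunit that binds the acyl carrier protein, rose from 288 ± 12.9 to 381 ± 15.7 FPKM (log2 fold change 0.40, limma adjusted p = 5.22e-05). Ndufa2, a thioredoxin-like subunit that is encoded on chromosome 18, rose from 112 ± 4.47 to 143 ± 3.84 FPKM (log2 fold change 0.35). Ndufs4, Ndufv3 and Ndufa7 did not pass. Ndufs4, whose loss is used as a mouse model of Leigh syndrome, had means of 85.6 ± 1.76 in WT and 84.8 ± 3.14 FPKM in BACH1-KO, a log2 fold change of -0.02 (SE 0.04). Ndufv3 was at 387 ± 34.7 and 419 ± 19.7 FPKM, and Ndufa7, the most abundant of the 44 genes, at means of 964 and 885 FPKM. Ndufa12, a paralog of the assembly factor Ndufaf2, was at 71.8, 139 and 78.0 FPKM in WT and at 70.9, 67.0 and 66.4 FPKM in BACH1-KO. The second WT library stood apart, the knockout libraries were all below WT, and the gene did not pass (log2 fold change -0.43, SE 0.21, limma adjusted p = 0.0992). Without the second WT library the log2 fold change was -0.13 and passed (adjusted p = 0.0463), and without the first it was -0.61 (adjusted p = 0.0329).

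In the proximal part of the membrane arm, which joins the matrix arm, 5 of 9 genes fell, 3 rose and Ndufs5 did not pass. Over all tested genes 39.7% fell and 37.3% rose. Ndufa8, a cysteine-rich subunit on the intermembrane space side (chromosome 2, 36036326 to 36049406), had the largest change past the threshold among the 44 genes. It was at 125, 137 and 140 FPKM in WT and at 57.5, 62.0 and 65.4 FPKM in BACH1-KO. The highest knockout value was well under the lowest WT value, and the knockout mean was 0.46 times the WT mean, with a log2 fold change of -1.11 (SE 0.06, limma adjusted p = 9.28e-07). Ndufa8 fell under every alternative that was run, including the test against a fold change of 1.5. Ndufa10, a matrix-side subunit with a nucleoside kinase fold, was at 129, 130 and 122 FPKM in WT and fell to 95.7, 88.9 and 89.5 FPKM in BACH1-KO (log2 fold change -0.47, SE 0.04, limma adjusted p = 1.38e-05). Ndufa11, a membrane protein of the Tim17 family, fell from 34.0 ± 1.48 to 26.4 ± 1.08 FPKM, and the small X-linked subunit Ndufa1 from 166 ± 8.67 to 135 ± 7.15 FPKM. Under quantile normalization Ndufa1 was at -0.14 and lost its call (adjusted p = 0.0523). Ndufa3 was at 272, 286 and 308 FPKM in WT and at 171, 177 and 274 FPKM in BACH1-KO. The third knockout library lay within the WT range, and the fall (log2 fold change -0.51, SE 0.16, limma adjusted p = 0.0198) was lost without the third WT (adjusted p = 0.0565), the first knockout (0.0716) or the second knockout library (0.0702) and under quantile normalization (0.101). Without the third knockout library the log2 fold change was -0.73 (adjusted p = 3.35e-05).

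The 3 genes of this region that rose were Ndufc2, Ndufa13 and Ndufc1. Ndufc2, a membrane subunit (chromosome 7, 97400003 to 97407802), was at 238, 240 and 218 FPKM in WT and at 350, 339 and 316 FPKM in BACH1-KO. The groups were well apart, with a log2 fold change of 0.53 (SE 0.05, limma adjusted p = 2.49e-05). Ndufa13, also called GRIM-19, rose from 65.9 ± 4.38 to 75.3 ± 4.69 FPKM (log2 fold change 0.19). That call was lost without the third WT library (adjusted p = 0.0564) or the first knockout library (0.0655). Ndufc1 had means of 329 ± 8.77 in WT and 357 ± 19.3 FPKM in BACH1-KO. Its log2 fold change of 0.11 (limma adjusted p = 0.0390) was no longer called without the second WT (adjusted p = 0.121), the third WT (0.0716) or the second knockout library (0.122), with no filter on low values (0.0581) and with a constant prior variance (0.0843).

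Ndufs5, a cysteine-rich subunit like Ndufa8, was listed at 0, 20.3 and 10.9 FPKM in WT and at 7.07, 2.87e-04 and 4.01e-04 FPKM in BACH1-KO. No other complex I gene scattered in this way, and the values of the genotypes overlapped. In GENCODE a transcript of BC002163, a separate gene on chromosome 16, matches the Ndufs5 transcript at 90% identity or more over at least 200 bases. BC002163 was at 362, 381 and 342 FPKM in WT and at 288, 272 and 277 FPKM in BACH1-KO (log2 fold change -0.37, limma adjusted p = 8.55e-05). Reads of near-identical copies can be assigned to either, so the split between these 2 rows is uncertain. When the 2 rows were summed in each library, an alternative chosen after the data were seen, the log2 fold change came to -0.40 (limma adjusted p = 1.79e-04). Near-identical transcripts by this search, exons shared with a neighbour included, were found for 17 of the 44 genes, and for 3 of them, Ndufs5, Ndufa13 and Ndufb5, the other gene has a row of its own in the table.

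In the distal membrane arm, which holds the far pumping subunits, 4 of 10 genes fell, 2 rose and 4 did not pass. The share that fell was near the 39.7% of all tested genes that did so, while 37.3% of all tested genes rose. Ndufb10, an intermembrane-space subunit with cysteine motifs, was at 189, 198 and 207 FPKM in WT and fell to 143, 149 and 155 FPKM in BACH1-KO (log2 fold change -0.41, SE 0.04, limma adjusted p = 4.44e-05). Ndufb3, a small membrane subunit, was at 345, 338 and 341 FPKM in WT and fell to 257, 270 and 264 FPKM in BACH1-KO (log2 fold change -0.37, SE 0.03, limma adjusted p = 7.96e-06). In both, all knockout libraries were below WT. Ndufb5 fell from 209 ± 14.3 to 171 ± 2.19 FPKM and Ndufb7 from 449 ± 16.0 to 390 ± 13.3 FPKM, and neither was called under quantile normalization (adjusted p = 0.0748 and 0.452). Ndufb11, an X-linked subunit, rose from 171 ± 4.71 to 216 ± 1.68 FPKM, a log2 fold change of 0.34 (limma adjusted p = 1.68e-05). Ndufb2 had the same log2 fold change of 0.34, from 183 ± 4.71 to 232 ± 13.6 FPKM. It lies on chromosome 6 and was at 0.04 (adjusted p = 0.495) when libraries were centred per chromosome. The means of Ndufb8, Ndufb9, Ndufb6 and Ndufb4, which did not pass, lay between 0.93 and 1.04 times WT. Under quantile normalization Ndufb4 (limma adjusted p = 4.63e-04), Ndufb6 (0.00187) and Ndufb9 (0.0334) were called higher, and Ndufb4 also centred per chromosome (0.0079). Without the first WT library Ndufb8 (0.00859) and Ndufb9 (0.0294) were called lower.

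Ndufab1, the mitochondrial acyl carrier protein, which serves fatty acid and lipoate synthesis and sits in the complex, had a mean of 183 ± 13.1 FPKM in WT and fell to 141 ± 2.28 FPKM (log2 fold change -0.38, SE 0.05, limma adjusted p = 1.66e-04). The remaining symbols are not complex I subunits. Ndufa4, now assigned to cytochrome c oxidase, was at 866, 908 and 895 FPKM in WT and 950, 881 and 905 FPKM in BACH1-KO and did not pass (log2 fold change 0.04, SE 0.04, limma adjusted p = 0.400). It lies on chromosome 6, and centred per chromosome its log2 fold change was -0.27 (adjusted p = 2.10e-04), while under quantile normalization it was 0.20 (adjusted p = 8.29e-04). Ndufa4l2, its paralog and a known target of hypoxia signalling, was at 62.2, 82.4 and 82.0 FPKM in WT and 59.3, 63.3 and 61.2 FPKM in BACH1-KO. The first WT library lay among the knockout values. The fall (log2 fold change -0.29, SE 0.10, limma adjusted p = 0.0287) was lost without any 1 of the second or the third WT or the first or the third knockout libraries (adjusted p = 0.0671 to 0.0960), with no filter on low values (0.0545) and under quantile normalization (0.108).

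Assembly factors named Nduf included both the largest rise and the second largest rise among the 44 genes. Ndufaf3, which works with Ndufaf4 on the early Q module (chromosome 9, 108565537 to 108567434), was at 12.4, 13.2 and 10.8 FPKM in WT and at 20.8, 21.3 and 23.9 FPKM in BACH1-KO. The ratio of means was 1.82 and the log2 fold change 0.81 (SE 0.08, limma adjusted p = 3.17e-05), and its exons overlap those of Impdh2 on the opposite strand. Ndufaf4 (chromosome 4, 24898083 to 24905001) was at 10.3, 9.51 and 9.28 FPKM in WT and at 14.6, 15.3 and 15.6 FPKM in BACH1-KO. Its ratio of means was 1.57 and its log2 fold change 0.60 (SE 0.05, limma adjusted p = 1.65e-05). In both partners every knockout library was above every WT library. The other factors fell or did not pass. Ndufaf6 (chromosome 4, 11051045 to 11076205) was at 24.7, 28.4 and 27.2 FPKM in WT and at 19.3, 17.5 and 14.8 FPKM in BACH1-KO (log2 fold change -0.62, SE 0.09, limma adjusted p = 3.71e-04), again without overlap. Ndufaf1, part of the membrane-arm assembly complex, fell from 34.1 ± 2.92 to 25.9 ± 1.39 FPKM, and Ndufaf7, an arginine methyltransferase, from 20.7 ± 1.21 to 16.2 ± 0.593 FPKM. Ndufaf2, a late factor, was at 79.4, 78.9 and 79.7 FPKM in WT and at 76.5, 62.2 and 61.8 FPKM in BACH1-KO, so the first knockout library stayed near WT. Its fall (log2 fold change -0.25, limma adjusted p = 0.0160) was lost without the second (adjusted p = 0.0587) or the third knockout library (0.0591), centred per chromosome (0.0678) and under quantile normalization (0.133). Ndufaf5, which hydroxylates an arginine of Ndufs7, did not pass (10.9 ± 0.891 and 9.93 ± 0.443 FPKM). The row 1810043H04Rik, a RefSeq synonym of Ndufaf8 and outside the rule, was at 87.1 ± 7.96 and 74.6 ± 8.48 FPKM and did not pass (limma adjusted p = 0.0513).

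Summed over the 44 genes the level changed little. The sums were 8372, 8976 and 8876 FPKM in WT and 8285, 8144 and 8372 FPKM in BACH1-KO, so the ratio of means was 0.946, against 0.957 over all tested genes, and the lowest WT library was level with the highest knockout library. The share of the summed FPKM of a library was 1.07% to 1.11% in WT and 1.07% to 1.10% in BACH1-KO. No test of these sums is given, since the genes were chosen with earlier results known. The 6 core subunits lay further apart, with sums of 734, 770 and 796 FPKM in WT and 597, 592 and 605 FPKM in BACH1-KO, a ratio of 0.78. The 29 accessory subunits summed to 6522, 7021 and 6907 FPKM in WT and 6494, 6440 and 6634 FPKM in BACH1-KO, a ratio of 0.96, and the second and the third WT libraries alone lay above the knockout values. By count 12 accessory genes fell, 7 rose and 10 missed the threshold, where 39.7% of all tested genes fell and 37.3% rose. The core sum divided by the accessory sum within a library, a ratio formed after the values were seen, was 0.113, 0.110 and 0.115 in WT and 0.0919, 0.0920 and 0.0912 in BACH1-KO.

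**Figure D3:**
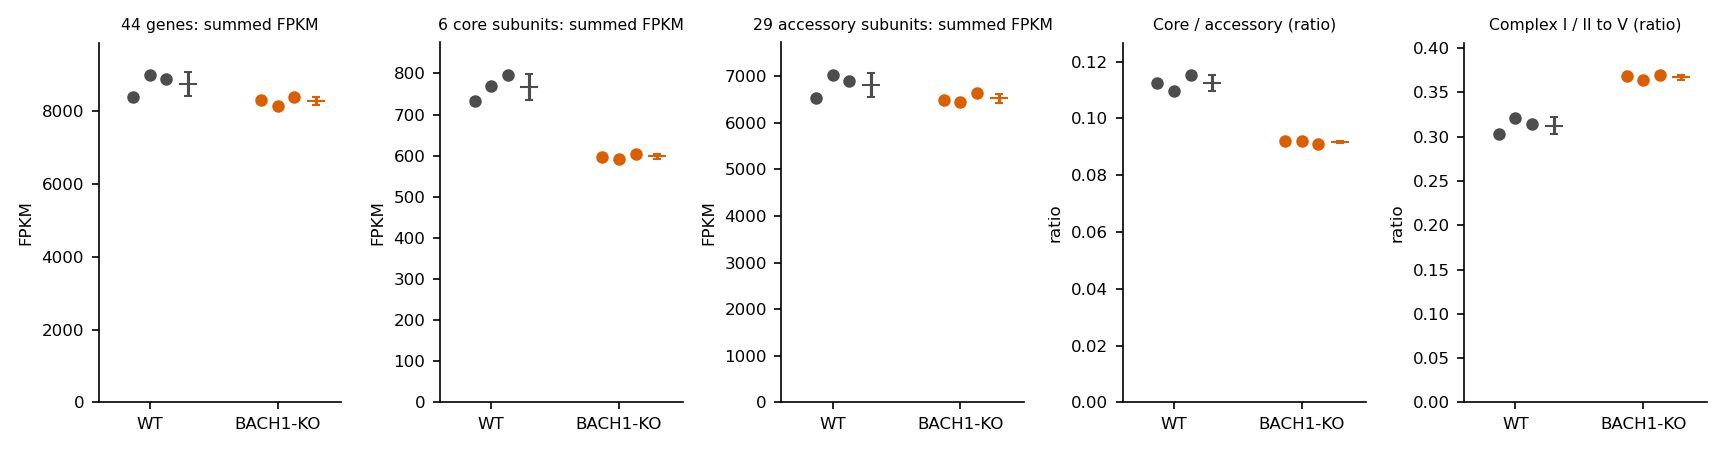
Summed FPKM of the 44 genes, of the 6 core and of the 29 accessory subunits, and 2 ratios of sums, each with a linear axis from 0, dots for the 3 libraries of each genotype and a bar for the mean and SD. The core sums lie at 734 to 796 FPKM for WT, at 592 to 605 FPKM for BACH1-KO, and the accessory sums of the genotypes overlap.

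Of the other genes that build complex I or supply its iron-sulfur clusters, 14 of 27 rose, 10 fell and 3 did not pass. Over all tested genes 37.3% rose and 39.7% fell, 77% in all. The median log2 fold change of the list was 0.21. This list, called the other complex I assembly genes below, pools assembly genes with iron-sulfur cluster genes, so its counts and median describe neither set alone. The factors of the membrane-arm assembly complex, in which Ndufaf1 works, split. Ecsit fell from 51.6 ± 1.32 to 34.7 ± 0.916 FPKM (log2 fold change -0.56, limma adjusted p = 3.02e-06) and Acad9 from 21.5 ± 0.431 to 14.0 ± 0.773 FPKM. Tmem126b rose from 18.7 ± 2.05 to 32.5 ± 1.01 FPKM and Tmem186 from 7.52 ± 0.277 to 13.4 ± 0.248 FPKM (log2 fold change 0.76, limma adjusted p = 2.58e-06). Timmdc1 rose less, from 11.3 ± 0.582 to 13.2 ± 0.882 FPKM. Genes of iron-sulfur cluster assembly also moved both ways. Nfs1, the cysteine desulfurase, fell from 39.7 ± 1.67 to 22.5 ± 0.765 FPKM (log2 fold change -0.80, limma adjusted p = 1.30e-06). Iscu, the scaffold on which clusters form, rose from 51.4 ± 0.386 to 97.9 ± 5.45 FPKM (log2 fold change 0.91), and Isca2, which serves the larger clusters, from 15.7 ± 0.821 to 51.2 ± 2.97 FPKM (log2 fold change 1.64, limma adjusted p = 1.15e-07). Lyrm4, the partner of Nfs1, rose from 15.9 ± 1.30 to 22.9 ± 1.74 FPKM. Oxa1l, which inserts proteins into the inner membrane, fell from 54.5 ± 2.68 to 33.0 ± 0.753 FPKM. Acad9, Tmem126b, Timmdc1 and Lyrm4 were named after their values were seen, as members of these complexes.

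Of 19 tested regulators of mitochondrial biogenesis 8 fell, 4 rose and 7 did not pass, with a median log2 fold change of -0.08. Over all tested genes 39.7% fell and 37.3% rose, so the share of these regulators that fell was near the background. Gabpa, the ETS factor also called NRF2 alpha that activates many respiratory genes, fell from 58.2 ± 0.389 to 34.2 ± 0.386 FPKM (log2 fold change -0.75, limma adjusted p = 2.67e-07). Pprc1, a coactivator of the PGC-1 family, fell from 24.3 ± 1.37 to 14.6 ± 0.612 FPKM. Tfam, which packages mitochondrial DNA and takes part in its transcription, fell from 43.1 ± 0.569 to 33.8 ± 0.808 FPKM. Tefm, the mitochondrial transcription elongation factor, rose from 43.0 ± 3.02 to 68.5 ± 3.34 FPKM, Yy1 from 36.3 ± 2.95 to 45.5 ± 1.32 FPKM and Tfb1m from 18.7 ± 0.865 to 22.8 ± 1.60 FPKM. Nrf1 was at 28.0 ± 1.41 in WT and 29.8 ± 0.648 FPKM in BACH1-KO and did not pass (log2 fold change 0.09, limma adjusted p = 0.0994). The part of these genes in the changes of complex I transcripts was not tested.

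The other respiratory complexes are given only to place complex I among them. In complexes II to V 40 of 70 tested genes fell and 18 rose, where 39.7% of all tested genes fell and 37.3% rose. The median log2 fold change was -0.23, beside the -0.23 of the 44 complex I genes. Both lists mix subunits with assembly factors, so these medians do not compare subunits with subunits. In complex IV the 3 falls with the smallest adjusted p were of subunits (Cox6b1, Cox7c and Cox7a2). The 3 such rises were of assembly factors (Coa6, Coa7 and Cox16). Of the 30 complex IV genes 14 fell and 10 rose, and the falls also included assembly factors. Among those were Cox11 (log2 fold change -0.55, limma adjusted p = 4.29e-06) and Cox15 (-0.49, adjusted p = 7.51e-05). The medians were -0.35 for complex II, -0.09 for III, -0.10 for IV and -0.37 for V, where 15 of 20 genes fell. The sum of the 44 genes divided by that of complexes II to V was 0.303, 0.321 and 0.314 in WT and 0.368, 0.364 and 0.369 in BACH1-KO. Within each knockout library the 44 genes thus stood higher relative to the other lists. The 44 include assembly factors and Ndufa4 of cytochrome c oxidase, at means of 889 FPKM in WT and 912 FPKM in BACH1-KO. The ratio is therefore not that of complex I subunits to the other complexes. A few abundant genes weigh in these sums. Atp5c1, the gamma subunit of ATP synthase, fell from 978 ± 19.9 to 465 ± 10.8 FPKM (log2 fold change -1.07, limma adjusted p = 5.72e-08), Cox6b1 of cytochrome c oxidase from 714 ± 8.56 to 425 ± 9.55 FPKM, and Uqcrh of complex III from 420 ± 5.84 to 215 ± 14.9 FPKM. Among the genes that rose were Coa6, a cytochrome c oxidase assembly factor, from 31.8 ± 1.09 to 76.7 ± 2.90 FPKM, Ttc19 of complex III from 11.4 ± 0.574 to 21.0 ± 0.563 FPKM, and Atpif1, the ATP synthase inhibitor, from 813 ± 21.3 to 996 ± 54.2 FPKM.

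**Figure D4:**
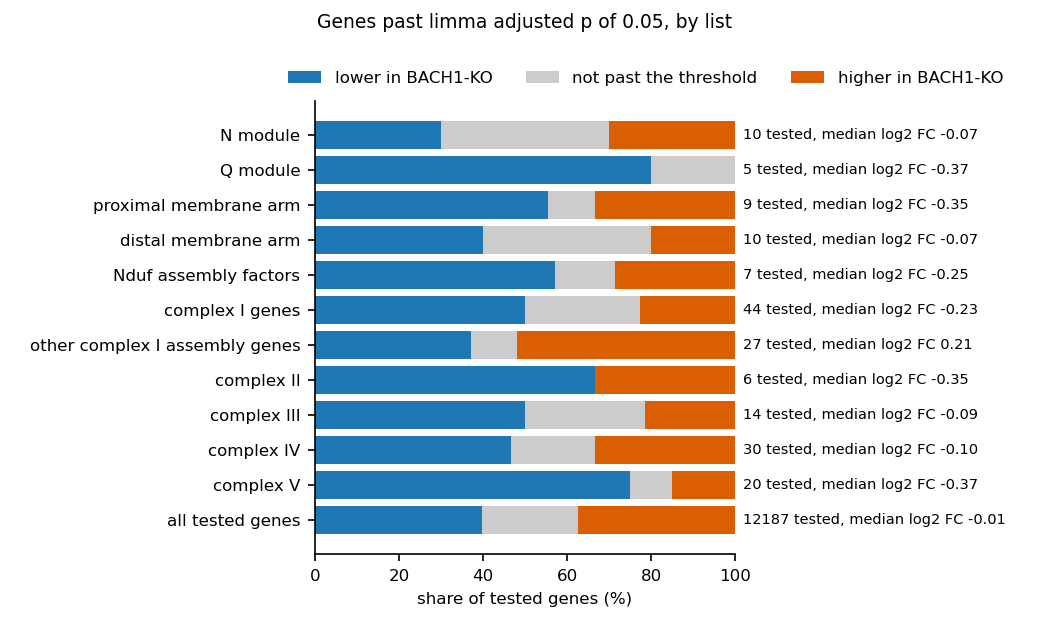
Share of tested genes (horizontal axis, percent) that were lower, not past the threshold or higher in BACH1-KO for the complex I modules, the 44 genes together, the other complex I assembly genes, complexes II to V and all 12187 tested genes, with the number tested and the median log2 fold change printed at the right. The Q module holds no gene past the threshold on the higher side. The other complex I assembly genes, a list that includes iron-sulfur cluster genes, have 14 of 27 on the higher side.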

How the data were processed

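RNA sequencing libraries of WT and BACH1-KO E14Tg2A cells, 3 of each, were compared, taken by the table's columns, which give the genotype and not the sample title. The authors deposited FPKM values per gene, made with Cufflinks on mm10 per the submitters' processing notes. For the aligner, annotation, versions and use of strand: not given in the sources used here. Values of this kind are relative within a library, so large changes in abundant genes shift the others, and absolute depth is unknown. The spacing of low values put relative depth at 1.00, 1.11 and 1.06 in WT and 1.17, 1.18 and 1.01 in BACH1-KO.

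Rows with a number for a symbol (23 rows, 0.0987% of summed FPKM) were left out. Genes whose mean reached 1 FPKM entered limma 3.58.1 (R 4.3.3, trended prior variance) on log2(FPKM + 1), with Benjamini-Hochberg adjustment over all of them and a threshold of 0.05. Fold changes on this scale understate those of low genes. The fit was also run on simulated data with independent noise and few changed genes. In the real data 77% of the tested genes passed, so that run does not bear on the calls given here. Per-library values are given for the nuclear core subunits, the 2 largest changes past the threshold in each module, the 3 largest among the assembly factors, any change of 0.5 or more in size and the Nduf-named genes outside complex I, and also for Ndufa10, Ndufa12 and Ndufaf2, chosen after their values were seen. Other genes of a list were named by smallest adjusted p, up to 3 each way, and further ones after their values were seen. Of the 45 genes that met the rule 1 is not reported here, and counts, medians and sums over the group leave it out. Members and lists were chosen with earlier results of these data known. Alternatives covered pseudocount, filter, scaling, prior, tests against a fold change, centring per chromosome and leaving out each library.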

Additional observations from a re-analysis of the deposited data

How the results depend on the processing

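Calls depended most on quantile normalization and on testing against a fold change, while with median-of-ratios scaling the counts stayed at 10 higher and 22 lower. Under quantile normalization, which moved the median of all genes by -0.03, 17 complex I genes rose and 15 fell in place of 10 and 22, and the median log2 fold change was -0.12 in place of -0.23. Against a fold change of 1.2, 5 rose and 8 fell. Against 1.5, 0 rose and 1 fell, and 7 of the other complex I assembly genes passed in place of 24. Without 1 library at a time 8 to 10 rose, 20 to 27 fell (27 without the first WT library), 21 to 24 other assembly genes passed, the median was -0.23 to -0.19 and the ratio of summed FPKM 0.926 to 0.959. That ratio was 0.962 with median-of-ratios scaling. The pseudocounts of 0.1 and 0.01 and the filter at 5 FPKM changed the call of none of the 44 genes.

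Signs reversed only for genes whose log2 fold change in the main fit was at most 0.15 in size. Of these Ndufa9 was called lower in the main fit. Some reversed values passed the threshold, such as that of Ndufa4 centred per chromosome (limma adjusted p = 2.10e-04) and that of Ndufb9 under quantile normalization (0.0334). Under quantile normalization the log2 fold changes were 0.028 for Ndufa7, 0.014 for Ndufa9, 0.093 for Ndufb8, 0.13 for Ndufb9 and 0.11 for Ndufs4. Centred per chromosome they were -0.27 for Ndufa4, -0.19 for Ndufa5, 0.046 for Ndufb9 and 0.066 for Ndufs4. With median-of-ratios scaling Ndufs4 was at 0.010. Without 1 library at a time Ndufb6 ranged from -0.0054 to 0.046, Ndufb9 from -0.10 to 0.0077 and Ndufs4 from -0.042 to 0.011. The cause of these shifts was not tested.

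No paired analysis was possible because the columns carry numbers that no label ties to a sample title, culture or day. Depth limits are unknown, since the values are FPKM, and 3 libraries per group cannot give an exact permutation p below 0.1. Ndufs5 and other genes with near-identical copies or overlapping exons are uncertain as single values.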
